A study of Mus musculus with 3 samples.

Results

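The genes described here encode the receptors of the nectin and nectin-like family, Tigit, Cd96, Cd226 and Crtam, together with the immune checkpoints Lag3, Pdcd1, Havcr2, Ctla4, Cd160 and Klrg1. They were chosen by symbol, and all 10 were found among the 25906 genes of the count matrices. Expression was measured by droplet-based single-cell RNA sequencing of sorted natural killer (NK) cells of lung and blood. The mice of all groups were wild-type females of the C57BL/6 background, 9 weeks old, and had received no tumor cells (naive) or 100000 PyMT cells, a mammary tumor line that forms metastases in the lung, by intravenous injection 6 h or 14 days earlier. Every cell had been sorted as live, NK1.1+ and NKp46+, and each of the 3 time points gave 1 library, in which hashtag antibodies separated lung from blood.

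Tissue was assigned by taking B0304 for lung and B0306 for blood, the order in which the methods list them. This gave 6 groups of 2069 to 4680 cells. Each group held between 16936897 and 35922737 unique molecular identifiers (UMIs), with a median of 5909.5 UMIs per cell in naive lung and of 7524 in 14-day blood. The mice within a library cannot be told apart, so each group is 1 sample and cells were not treated as replicates. No test between time points was possible, whereas lung and blood were tested across the 3 libraries. Levels are the UMIs of a gene summed over the cells of a group and given per 1e+06 UMIs of that group (CPM). Intervals are exact 95% intervals for counting error only (Poisson for levels, binomial for shares of cells, conditional on the summed counts for ratios), and they do not cover differences between mice. Lungs were dissociated and blood was not, and tissue and this handling cannot be told apart. In these sums a larger share of cells with a transcript and more transcripts per cell cannot be told apart, so the shares of thinned cells with a UMI are given too.

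Markers of NK cells fitted the sort. Ncr1 (NKp46) was found in 93.4% of cells of 14-day lung and 98.0% or more of each other group, and the 7 NK markers summed to 14549 CPM in 14-day lung and to between 18054 and 21688 CPM in the other groups. The 7 T cell markers summed to 31.4 to 38.7 CPM in the naive and 6 h groups and to 58.2 and 56.0 CPM in 14-day lung and blood. The 4 markers of type 1 innate lymphoid cells (ILC1) that were used, Tmem176a, Tmem176b, Cxcr6 and Il7r, summed to 20.8 to 31.2 CPM and then to 62.8 and 58.9 CPM. Myeloid markers summed to 4.90 to 94.4 CPM, the most in 14-day blood. Hemoglobin transcripts reached 82.0 CPM in 14-day lung, each gene in 0.0559% of cells. Kept barcodes shared between libraries numbered 7 to 16. Cells with both tags were left out, whereas doublets within a tissue stayed in.

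TIGIT, CD96 and CD226 compete for the same ligands, the poliovirus receptor PVR and, for TIGIT and CD226, nectin-2, which tumor cells often display. CD226 delivers an activating signal in NK cells, TIGIT an inhibitory one, and CD96 has been assigned both roles, while CRTAM binds the nectin-like protein CADM1. PD-1 (Pdcd1), CTLA-4, LAG-3 and TIM-3 (Havcr2) are inhibitory checkpoints best known from exhausted T cells, CD160 binds HVEM, and KLRG1 binds cadherins and marks mature NK cells.

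By GENCODE M21 annotation of GRCm38, Tigit (ENSMUSG00000071552) lies on chromosome 16 from 43648867 to 43664146 and Cd96 (ENSMUSG00000022657) on the same chromosome from 46035657 to 46120251, both on the minus strand. Crtam (ENSMUSG00000032021) lies on chromosome 9 from 40969691 to 41004628 and Klrg1 (ENSMUSG00000030114) on chromosome 6 from 122270596 to 122282882. Ctla4 (ENSMUSG00000026011) lies on chromosome 1 from 60887000 to 60915832 and Cd160 (ENSMUSG00000038304) on chromosome 3 from 96798763 to 96829351. Lag3 (ENSMUSG00000030124) lies on chromosome 6 from 124904361 to 124911705, Pdcd1 (ENSMUSG00000026285) on chromosome 1 from 94038305 to 94052553 and Havcr2 (ENSMUSG00000020399) on chromosome 11 from 46454935 to 46481255. Cd226 is ENSMUSG00000034028. All 10 are protein-coding.

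Tigit and Ctla4 were the members with higher levels in lung than in blood in every library, and the 250 bases before their RefSeq start sites (GRCm38.p6) are shown for that reason, each read 5′ to 3′ along the gene. Promoters were given for 6 of the 10 members. Capitals mark the NFAT core GGAAA and the RUNX motif TGTGGT on either strand. The Tigit window is chr16:43664185-43664434 on the minus strand, and the Ctla4 window is chr1:60908775-60909024 on the plus strand.
Tigit: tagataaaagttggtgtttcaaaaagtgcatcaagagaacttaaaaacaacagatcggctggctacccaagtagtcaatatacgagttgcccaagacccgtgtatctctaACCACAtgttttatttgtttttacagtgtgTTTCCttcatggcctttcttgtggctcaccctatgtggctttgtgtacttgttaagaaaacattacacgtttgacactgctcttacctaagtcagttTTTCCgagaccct
Ctla4: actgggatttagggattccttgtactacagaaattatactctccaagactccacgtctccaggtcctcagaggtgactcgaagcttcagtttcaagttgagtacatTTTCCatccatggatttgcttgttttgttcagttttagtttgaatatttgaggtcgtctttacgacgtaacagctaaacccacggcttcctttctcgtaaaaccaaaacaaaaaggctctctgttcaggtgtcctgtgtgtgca
The Tigit window held the GGAAA core at 2 positions and TGTGGT at 1, and the Ctla4 window held the GGAAA core at 1 position. Of 32851 mouse promoters cut to the same length, 55.6% held GGAAA and 14.0% held TGTGGT on either strand. The AP-1 motif TGANTCA (6.75% of promoters), the NR4A motif AAAGGTCA (1.34%), the T-box motif AGGTGTGA (1.12%) and TATAAA (12.4%) were in neither window.

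The inhibitory nectin receptor Tigit had the most uneven distribution between tissues among members with at least 10 CPM in either tissue of the naive and 6 h libraries. Its level was 28.5 CPM (95% CI 26.3 to 30.7) in naive lung, 34.0 (32.1 to 35.9) in 6 h lung and 41.6 (39.2 to 44.0) in 14-day lung. In blood it was 4.07 (3.38 to 4.86), 5.25 (4.34 to 6.30) and 5.43 CPM (4.38 to 6.66). All 3 lung groups were above all blood groups, the 3 lung groups were ordered in time with intervals that did not overlap, and the blood groups were not apart from their neighbours in the order. In blood the level was 1.33-fold higher (1.01 to 1.76) at 14 days than in the naive library. The log2 change over naive in lung minus that in blood was -0.11 (-0.50 to 0.28) at 6 h and 0.13 (-0.28 to 0.54) at 14 days. The change in time was thus not apart between the tissues. Lung over blood, the level was 6.99-fold higher (5.76 to 8.55) in the naive, 6.46-fold (5.34 to 7.89) in the 6 h and 7.66-fold (6.19 to 9.57) in the 14-day library. After each cell was thinned to 3000 UMIs, 6.77%, 8.13% and 10.1% of lung cells and 0.955%, 1.43% and 1.75% of blood cells held a Tigit UMI. The share that free RNA could give was at most 0.171%, and the unthinned shares were 14.4% to 23.9% in lung and 2.50% to 4.11% in blood.

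**Figure D1:**
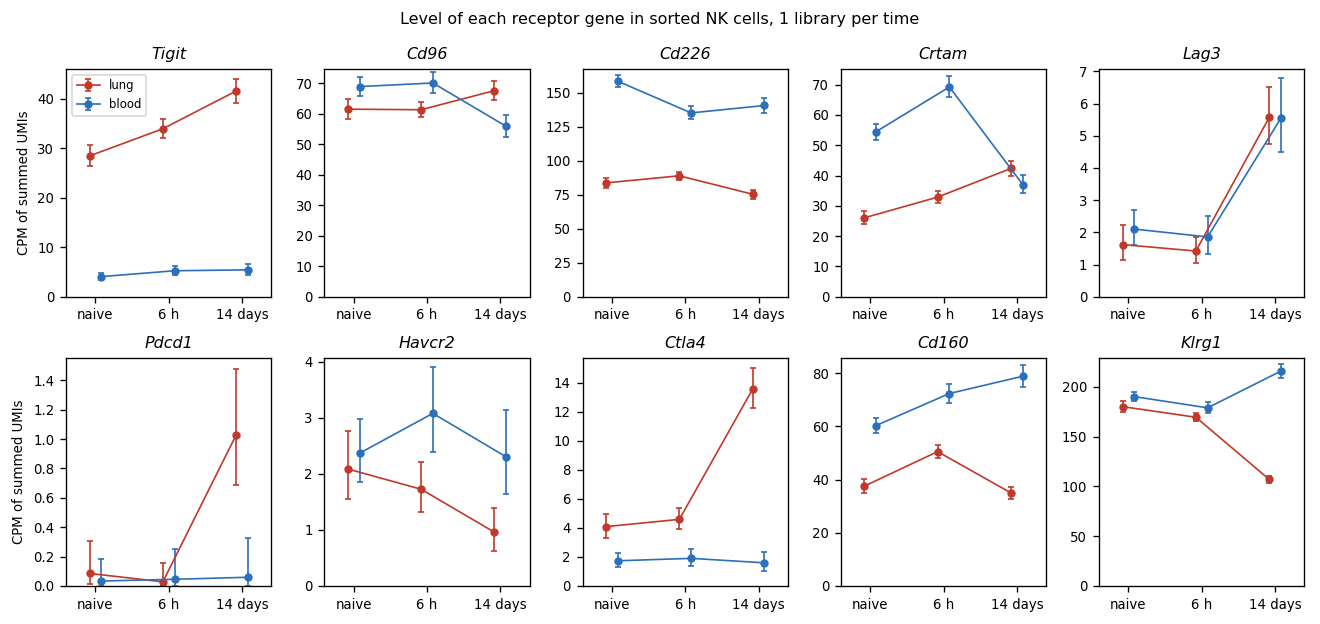
Level of each member (CPM of summed UMIs, vertical axis from 0, a scale for each gene) in lung (red) and blood (blue) for each library, naive, 6 h and 14-day, which are evenly spaced and not to scale in time. Points are single groups and bars are exact 95% Poisson intervals; Tigit was above 28 CPM in each lung group and below 6 in each blood group, and Klrg1 was lowest in 14-day lung at 107 CPM.

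The activating receptor Cd226 was placed the other way. It had 83.8 CPM (80.1 to 87.6) in naive lung, 89.0 (85.9 to 92.1) in 6 h lung and 75.4 (72.2 to 78.7) in 14-day lung, against 159 (154 to 163), 135 (130.4 to 140.2) and 141 CPM (135 to 146) in blood of these libraries. Each blood group was above each lung group, and the level in blood was 1.89-fold (1.80 to 2.00), 1.52-fold (1.45 to 1.60) and 1.87-fold higher (1.76 to 1.98). Thinned cells with a Cd226 UMI made up 14.6% to 17.0% in lung and 22.4% to 26.1% in blood. Set against each other within a group, there were 0.340 Tigit UMIs per Cd226 UMI in naive lung (0.311 to 0.371) and 0.552 in 14-day lung (0.513 to 0.593), whereas the blood groups had 0.0257 to 0.0388. The ratio in lung was thus higher at 14 days than in the naive library, and the intervals did not overlap. In blood it was 0.0257 (0.0213 to 0.0307) in the naive and 0.0386 (0.0310 to 0.0476) in the 14-day library, also without overlap. UMIs count transcript ends, so the ratio compares groups and not the abundance of the proteins.

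Cd96, which shares its ligand with Tigit and Cd226, varied least, with a highest level 1.25 times its lowest. It had 61.5 CPM (58.3 to 64.7) in naive lung, 61.3 (58.8 to 63.9) in 6 h lung and 67.6 (64.6 to 70.7) in 14-day lung, and 68.9 (65.9 to 71.9), 70.1 (66.6 to 73.6) and 55.9 CPM (52.4 to 59.5) in blood. The 6 h blood, naive blood and 14-day lung groups were not apart from each other, naive and 6 h lung lay below them and were not apart from each other, and 14-day blood was the lowest. The shares of thinned cells with a Cd96 UMI were 14.6%, 15.8% and 16.6% in naive, 6 h and 14-day lung and 17.1%, 15.6% and 14.1% in blood. Lung over blood, the log2 ratio was -0.16 (-0.26 to -0.07) in the naive, -0.19 (-0.29 to -0.10) in the 6 h and 0.27 (0.16 to 0.39) in the 14-day library. In thinned cells the 6 h ratio was 0.0017.

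Crtam, a receptor for the nectin-like protein CADM1 that is induced on activated NK and T cells, had 26.0 CPM (24.01 to 28.18) in naive lung, 32.9 (31.0 to 34.8) in 6 h lung and 42.3 (40.0 to 44.8) in 14-day lung. In blood it had 54.4 (51.8 to 57.1), 69.2 (65.8 to 72.8) and 37.0 CPM (34.2 to 40.0). Blood was 2.09-fold higher (1.90 to 2.30) in the naive and 2.10-fold higher (1.95 to 2.27) in the 6 h library, while at 14 days the log2 ratio of lung over blood was 0.19 (0.05 to 0.34). That last value was 0.0040 in thinned cells, -0.06 as the mean over cells and -0.11 without the 5% of cells with the most UMIs. Of thinned cells, 5.21%, 6.08% and 6.36% held a Crtam UMI in naive, 6 h and 14-day lung and 7.01%, 9.61% and 5.72% in blood. Crtam UMIs were concentrated in few cells, with up to 41 UMIs in a cell of 14-day lung and 69 in a cell of 6 h blood. The 5% of cells with the most UMIs held 32.8% of the Crtam UMIs of 14-day lung, against 18.3% in naive lung.

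Of the members, 6 reached 10 CPM in at least 1 tissue of the naive library, and 1 was at least 1.5-fold higher in lung (Tigit) and 3 were at least 1.5-fold lower (Cd226, Crtam and Cd160). Over all 8212 genes that reached this level, 6.5% were higher and 3.95% lower in lung by this measure. At 6 h, 1 of 6 members was higher (Tigit) and 2 were lower (Cd226 and Crtam), where 6.11% and 3.4% of 8173 genes were. At 14 days, 2 of 7 were higher (Tigit and Ctla4) and 3 lower (Cd226, Cd160 and Klrg1), where 5.75% and 3.96% of 8103 genes were. Ctla4 fell under 10 CPM in cells thinned to 3000 UMIs, as the mean of CPM over cells and without cells with ILC1 markers. It was not called there, though its log2 ratio was at its lowest, 2.54, in thinned cells. The median log2 ratio of the members tested was -0.42, -0.36 and 0.19 in the naive, 6 h and 14-day libraries, beside -0.093, -0.097 and -0.11 over all genes tested. These medians are not over the same members, because Ctla4 was tested at 14 days alone, through its level in 14-day lung. There it could be counted only as higher or as not called, so the 3 medians cannot be compared with each other. At 6 h, Cd226 fell short of 1.5-fold in cells thinned to 3000 UMIs, as the mean of CPM over cells and with the median of all genes set to 0. It also fell short with 1200 to 5000 genes and at most 4% mt- counts. The same held without the 5% of cells with the most UMIs and without cells with T cell markers.

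Lung and blood of the same library were then compared across the 3 libraries by edgeR's quasi-likelihood test on the summed counts, with the library as a block and Benjamini-Hochberg adjustment over 12653 genes. The test was chosen after the data had been seen. It left 2 residual degrees of freedom, and because the libraries differ in time, differences between times enter its spread. The SE given below is the absolute log2 ratio divided by the square root of the test's F statistic. That statistic uses a spread moderated across genes, so the SE is not one between the libraries alone. Of 9 members tested, 2 were higher in lung and 2 lower at an adjusted p under 0.05, where 11.8% and 7.12% of all genes tested were. Tigit was higher by 2.91 on the log2 scale (SE 0.085), with an adjusted p of 9.70e-05, and Ctla4 by 1.95 (SE 0.39), with an adjusted p of 0.0251, both in 3 of 3 libraries. Cd226 had a log2 ratio of -0.71 (SE 0.079, adjusted p 0.00466) and Cd160 one of -0.69 (SE 0.12, adjusted p 0.0170), both lower in lung in 3 of 3 libraries. The other members tested did not pass, with Crtam at -0.56 (adjusted p 0.204), Havcr2 at -0.62 (0.133), Klrg1 at -0.29 (0.330), Lag3 at -0.12 (0.680) and Cd96 at 0.068 (0.706), and Pdcd1 had too few counts. Without the 6 h library Ctla4 no longer passed (adjusted p 0.0635), where 498 of 12733 genes did. Without the 14-day library, the only one in which Crtam was not lower in lung, Crtam passed as well, at -0.96 (adjusted p 2.69e-12). There 5781 of 12795 genes passed, so this call was shared by a large part of all genes. Both fits left 1 residual degree of freedom.

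**Figure D2:**
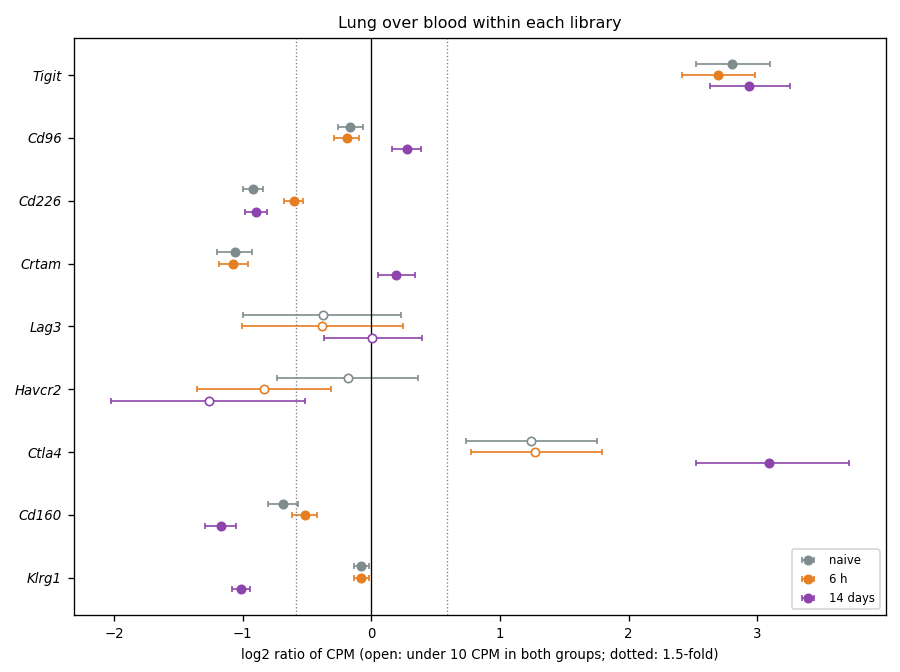
Log2 ratio of the level in lung over blood (horizontal axis) for 9 members within the naive, 6 h and 14-day libraries, with exact 95% counting intervals. Open points were under 10 CPM in both tissues, dotted lines mark 1.5-fold, and Pdcd1 is left out for its few UMIs; Tigit lay at 2.69 to 2.94 in all 3 libraries, while Klrg1 moved from -0.08 to -1.01 and Crtam from -1.06 to 0.19.

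The remaining checkpoints with substantial counts were Cd160 and Klrg1. Cd160 had 37.5 CPM (35.1 to 40.1) in naive lung, 50.5 (48.2 to 52.9) in 6 h lung and 35.0 (32.8 to 37.2) in 14-day lung, against 60.3 (57.6 to 63.2), 72.4 (68.9 to 76.0) and 78.9 CPM (74.7 to 83.2) in blood. Every blood group was above every lung group, and the level in blood was 1.61-fold (1.48 to 1.74), 1.43-fold (1.34 to 1.53) and 2.25-fold higher (2.08 to 2.45). Of thinned cells, 8.77%, 12.4% and 7.52% held a Cd160 UMI in naive, 6 h and 14-day lung and 12.7%, 16.2% and 15.1% in blood. Klrg1 had 180 CPM (175 to 186) in naive lung and 190 (185 to 195) in naive blood, 169 (165 to 174) and 179 (173 to 185) at 6 h, and 107 (103 to 111) and 216 (209 to 223) at 14 days. The 4 naive and 6 h groups lay close together, and the 14-day groups were the highest and the lowest of all, 2.02-fold apart (1.92 to 2.12). Klrg1 was found in 35.5% of thinned cells of naive lung and 22.0% of 14-day lung, with 37.2% and 40.2% in blood of these libraries.

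The classical exhaustion checkpoints were sparse. Ctla4 had 4.09 CPM (3.31 to 5.00) in naive lung, 4.59 (3.92 to 5.35) in 6 h lung and 13.6 (12.27 to 15.02) in 14-day lung, with 1.73 (1.30 to 2.28), 1.90 (1.37 to 2.57) and 1.59 CPM (1.05 to 2.32) in blood. The 14-day lung group stood above all others, the other lung groups were above blood, and the blood groups were not apart. At 14 days lung was 8.53-fold higher than blood (5.77 to 13.1), on 383 and 27 UMIs. Of thinned cells, 2.21% held a Ctla4 UMI in 14-day lung and 0.864% in naive lung, where free RNA could give 0.137% and 0.120%.

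With 1 library per time, time and library cannot be told apart, and Lag3, under 10 CPM throughout, differed between libraries rather than tissues. It had 1.62 CPM (1.15 to 2.22) in naive lung and 2.10 (1.62 to 2.69) in naive blood, 1.42 (1.06 to 1.87) and 1.86 (1.33 to 2.52) at 6 h, and 5.57 (4.73 to 6.51) and 5.55 (4.49 to 6.79) at 14 days. Both 14-day groups were above the 4 others, which were not apart from each other in the order, and within each library lung and blood were not apart. A Lag3 UMI was found in 0.501%, 0.431% and 1.27% of thinned cells of naive, 6 h and 14-day lung and in 0.443%, 0.550% and 1.02% in blood. Havcr2 had 2.09 (1.55 to 2.76), 1.73 (1.32 to 2.21) and 0.958 CPM (0.631 to 1.39) in lung of the naive, 6 h and 14-day libraries and 2.37 (1.85 to 2.99), 3.08 (2.39 to 3.90) and 2.30 (1.64 to 3.15) in blood. Only 14-day lung was apart from its neighbour in this order. Lung over blood, the log2 ratio of Havcr2 was -0.84 (-1.36 to -0.32) at 6 h and -1.26 (-2.03 to -0.52) at 14 days. In the naive library it was -0.18 (-0.74 to 0.36). At 14 days over naive in lung it was -1.12 (-1.86 to -0.42). A Havcr2 UMI was found in 0.501%, 0.431% and 0.170% of thinned cells of lung and in 0.466%, 0.697% and 0.582% in blood. Of the 27 Havcr2 UMIs of 14-day lung, 8 were in cells with UMIs of myeloid markers.

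Pdcd1 was close to absent from these sums, with 2, 1 and 29 UMIs in naive, 6 h and 14-day lung and 1 UMI in each blood group. The 29 UMIs of 14-day lung were in 0.224% of its cells, 20 of them in a single cell, and 23 in cells with UMIs of at least 2 ILC1 markers. In thinned cells the share with a Pdcd1 UMI was at most 0.0848%. In naive lung 3 UMIs, the count that a gene at 0 was set to, correspond to 0.128 CPM. Outside 14-day lung the level of Pdcd1 was under this value, at 0.0278 to 0.0852 CPM. Its counting intervals there reached past it, up to 0.329 CPM in 14-day blood.

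At 6 h over naive, no member with at least 10 CPM differed by 1.5-fold, in lung (0 of 6) or in blood (0 of 5). Among all genes, 0.487% were higher and 0.0874% lower in lung, and 0.283% higher and 0.234% lower in blood. The medians over the members tested were 0.17 and 0.02, beside -0.07 and -0.06 over all genes tested. Cd160 was 1.35-fold higher (1.24 to 1.46) in lung and 1.20-fold (1.12 to 1.28) in blood, Crtam was 1.26-fold (1.14 to 1.39) and 1.27-fold higher (1.18 to 1.36), and Tigit in lung was 1.19-fold higher (1.09 to 1.31). Cd226 in blood was 1.17-fold lower (1.12 to 1.23). These differences exceeded the counting error, but with 1 library per time their spread between mice is unknown.

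At 14 days over naive in lung, 2 of 7 members were at least 1.5-fold higher (Crtam and Ctla4) and 1 was lower (Klrg1), where 4.64% and 10.9% of 8108 genes were. Ctla4 reached 10 CPM in 14-day lung alone, so it could be counted here only as higher or as not called. The median over all genes tested was shifted by -0.19 on the log2 scale in lung and by -0.15 in blood, so that levels relative to it were higher than the plain ratios by these amounts. Ctla4 was 3.32-fold higher (2.65 to 4.20) and Crtam 1.63-fold higher (1.47 to 1.80), while Klrg1 had a log2 ratio of -0.75 (-0.82 to -0.68). Tigit was 1.46-fold higher (1.33 to 1.61). With that median set to 0, the log2 ratios were 1.92 for Ctla4, 0.89 for Crtam, 0.74 for Tigit and -0.56 for Klrg1, which put Tigit past 1.5-fold and Klrg1 just short of it. Klrg1 also fell just short, at -0.58, with totals taken without mt- and ribosomal protein genes, where Tigit again passed. The values of Cd226 (-0.15) and Cd160 (-0.10) changed sign with this scaling, to 0.04 and 0.09. Without cells holding ILC1 markers, the value of Cd226 was -0.36. In cells thinned to 3000 UMIs, the log2 ratio of Crtam was 0.46 and that of Ctla4 1.34 at a level of 9.42 CPM in 14-day lung, so that Klrg1 alone was called. Lag3, under 10 CPM throughout, was higher by 1.78 on the log2 scale (1.26 to 2.33), on 157 and 38 UMIs. The median over the members tested was 0.14, with Ctla4 among them.

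In blood at 14 days over naive, 0 of 5 members were past 1.5-fold, where 0.949% of all genes were higher and 3.01% lower, and the median over the members tested was -0.17. Crtam came closest, 1.47-fold lower (1.34 to 1.62), followed by Cd160, 1.31-fold higher (1.22 to 1.40), and Cd96, 1.23-fold lower (1.14 to 1.33). Without cells holding T cell markers, and with free RNA subtracted, Crtam passed the threshold. Lag3 was 2.64-fold higher (1.90 to 3.69), on 94 and 63 UMIs, a log2 ratio of 1.40 that was 1.00 without cells holding ILC1 markers. Without these cells the log2 ratio of Cd160 was 0.21 instead of 0.39, and that of Cd226 was -0.38 instead of -0.17. Both 14-day comparisons use the naive library, but different cells of it.

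**Figure D3:**
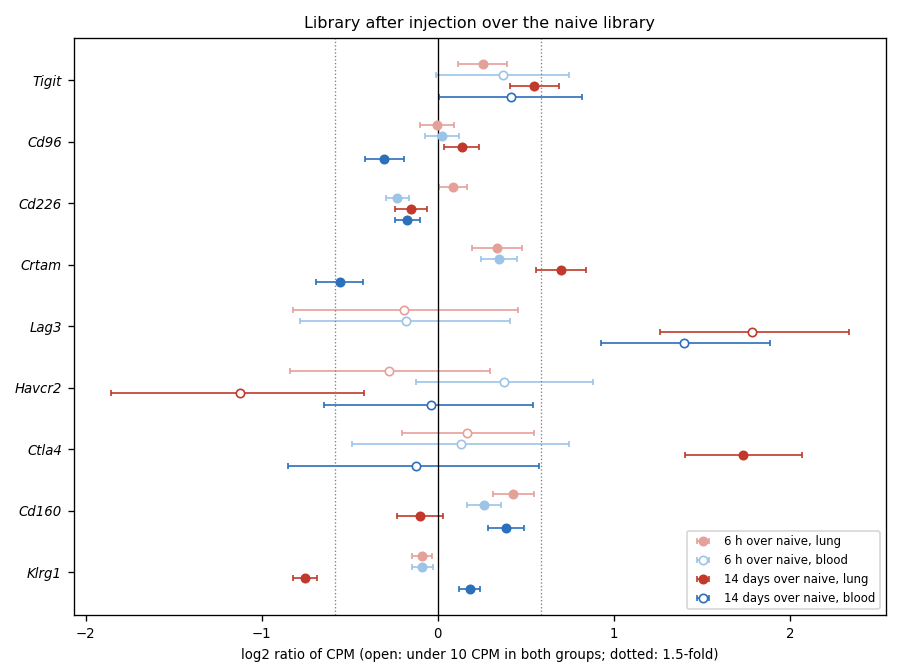
Log2 ratio of the level after injection over the naive library (horizontal axis) for 9 members in lung (red) and blood (blue), pale at 6 h and dark at 14 days, with exact 95% counting intervals. Open points were under 10 CPM in both groups and dotted lines mark 1.5-fold; at 14 days Ctla4 was at 1.73 in lung and -0.12 in blood, and Crtam and Klrg1 lay on opposite sides of 0 in the tissues.

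The less mature NK cells of mice carry CD27 and the more mature ones CD11b (Itgam), and the members were placed differently along these markers. Cells were classed by their UMIs of Cd27 and Itgam after thinning to 3000 UMIs, which leaves many cells without a UMI of either. Cells with Cd27 and no Itgam made up 6.71%, 8.53% and 9.10% of naive, 6 h and 14-day lung and 7.41%, 8.66% and 6.54% of blood. Cells with Itgam and no Cd27 made up 50.4%, 44.9% and 34.9% in lung and 53.3%, 46.3% and 45.2% in blood, and cells with neither were most frequent in 14-day lung, at 52.6%.

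Klrg1 was lower in cells with Cd27 and no Itgam than in those with Itgam and no Cd27 in all 6 groups. In 14-day lung it had 18.9 CPM in the former and 173 in the latter, a log2 ratio of -3.20 (-3.61 to -2.81), whereas the ratios of the other groups ran from -1.86 (-2.07 to -1.66) in 6 h lung to -1.63 (-1.94 to -1.34) in 14-day blood. The 14-day lung interval did not overlap the others, also when classes came from cells thinned to 2000 UMIs (-2.52, -2.88 to -2.17). At 14 days over naive in lung, Klrg1 was lower within every class, by -1.72 (-2.21 to -1.24) with Cd27 and no Itgam, by -0.91 (-1.32 to -0.51) with both, by -0.35 (-0.44 to -0.25) with Itgam and no Cd27 and by -0.85 (-0.96 to -0.74) with neither.

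Cd160 and Crtam were placed the other way and were higher in cells with Cd27 and no Itgam in all 6 groups. The log2 ratio for Cd160 was 1.24 (1.02 to 1.45) in naive blood and 2.42 (2.19 to 2.66) in 14-day blood, where the level reached 240 CPM, and 1.35 to 1.57 in lung. For Crtam it was 1.06 (0.64 to 1.46) in naive lung, 1.21 (0.93 to 1.499) in 6 h lung and 2.87 (2.56 to 3.20) in 14-day lung, and 1.17 to 1.93 in blood. The higher Crtam level of 14-day lung over naive lung was not shared by all classes. The ratio was 1.33 on the log2 scale (0.94 to 1.74) in cells with Cd27 and no Itgam and -0.49 (-0.82 to -0.16) in cells with Itgam and no Cd27.

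For Tigit the log2 ratios of these classes lay between -0.44 and 0.37 in the 6 groups and their intervals all held 0, though with classes from 2000 UMIs it was higher with Cd27 and no Itgam in naive lung (0.57, 0.13 to 0.98). Its excess in lung was found within each class of each library, with log2 ratios of lung over blood from 2.18 (1.27 to 3.17) to 3.64 (2.47 to 5.12). Cd226 was not apart between the classes in naive lung (-0.0035) or 14-day lung (0.07) but was higher with Cd27 and no Itgam in 14-day blood, by 1.30 (1.11 to 1.497).

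**Figure D4:**
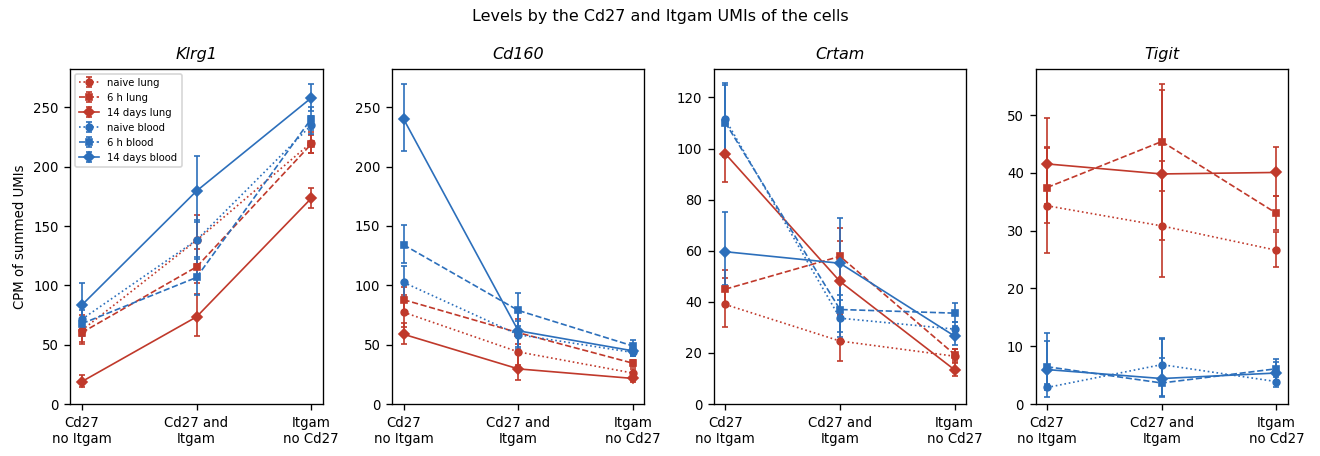
Level (CPM of summed UMIs, vertical axis from 0, a scale for each gene) of Klrg1, Cd160, Crtam and Tigit in cells with a UMI of Cd27 and none of Itgam, of both, and of Itgam and none of Cd27, for the 6 groups, with exact 95% Poisson intervals. Klrg1 was highest with Itgam and no Cd27, Cd160 and Crtam were highest with Cd27 and no Itgam in most groups, and Tigit was higher in lung than in blood in each class.

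Cells with UMIs of at least 2 of the 4 ILC1 markers were few, between 0.326% of naive blood and 2.28% of 14-day blood in thinned cells, but carried distinct levels of the members. Cd226 was higher in them than in the remaining cells in all 6 groups, with log2 ratios from 2.17 (1.78 to 2.54) in naive lung to 2.88 (2.59 to 3.16) in 6 h lung, and Cd160 was higher by 1.49 to 2.61. Klrg1 was lower in all 6 groups. Ctla4 in them had 137 CPM in naive lung, 135 in 6 h lung and 131 in 14-day lung, against 3.16, 3.98 and 10.7 CPM in the rest. Over all kept cells, those with ILC1 markers held 27.1% of Ctla4 UMIs in naive lung and 33.2% in 14-day lung, but 0 of 52, 1 of 42 and 1 of 27 Ctla4 UMIs in naive, 6 h and 14-day blood. Without them, the log2 ratio of Ctla4 at 14 days over naive in lung was 1.65, close to the 1.73 with them, at a level of 9.48 CPM. Lung over blood, leaving them out lowered the log2 ratio of Ctla4 from 1.24 to 0.79 in the naive library. At 6 h it fell from 1.27 to 0.94, and at 14 days it was 3.09 with them and at least 2.54 under every alternative. Cells with ILC1 markers also held 28.7% of Lag3 UMIs in 14-day blood and 13.4% in 14-day lung. In 14-day blood they held 18.5% of Cd226 UMIs and 16.1% of Cd160 UMIs, against 2.92% and 2.21% in naive blood. They were not left out of the Cd27 and Itgam classes above.

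In 14-day lung, 7.44% of thinned cells held UMIs of both Itga1 (CD49a) and Pmepa1, a TGF-β response gene, whereas at most 0.345% did so in the other groups. Compared with the remaining cells of 14-day lung, Klrg1 was lower in them by -2.68 (-3.19 to -2.20), Cd96 was higher by 0.70 (0.49 to 0.90), Tigit by 0.42 (0.12 to 0.70) and Cd226 by 0.39 (0.18 to 0.61). Crtam (-0.08), Cd160 (-0.05) and Ctla4 (0.13) were not apart from the rest. Cells with at least 2 UMIs of the chemokine gene Ccl3, which activated NK cells express, had more Crtam in all 6 groups, from 0.41 (0.19 to 0.62) in 14-day lung to 1.79 (1.51 to 2.07) in 14-day blood, and no difference in Tigit beyond counting error.

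After thinning, 29.3% to 40.4% of cells held no UMI of any member, the highest share being that of 14-day lung, and the mean number of members found per cell was 0.809 in 14-day lung, 0.891 and 0.9502 in naive and 6 h lung and 1.02 to 1.03 in blood. Crtam and Cd160 were found in the same cell 1.74 to 2.32 times as often as the product of their shares gives, for example in 73 cells of naive blood against 38.4. Crtam and Klrg1 shared a cell 0.505 to 0.752 times as often, with an interval that held 1 in 14-day blood alone (0.738, 0.514 to 1.03). Cd160 and Klrg1 shared a cell 0.626 to 0.737 times as often in 5 groups, with intervals below 1, and 0.923 times (0.693 to 1.20) in 14-day lung. These ratios are descriptions over cells of 1 library each, and the cells of the maturation classes above are among them.

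Among genes whose levels ran most like a member over 24 points (the 6 groups, each split into 4 classes by Cd27 and Itgam, classes with neither UMI included), 4634 genes were compared by Pearson's correlation of log2 levels. Tigit was most like Rgs1 (0.98), a regulator of G protein signalling, followed by Btg1 and Sqstm1 (both 0.98). Klrg1 was most like the granzyme gene Gzma (0.97), Cma1 and Klra9, and Crtam most like Ksr1 (0.82) and the chemokine gene Xcl1 (0.79). Ctla4 was most like Plac8 (0.93) and Rnf149 and the aryl hydrocarbon receptor gene Ahr, Cd226 most like Tespa1 (0.89), Cd160 most like Gimap7 (0.89), Cd7 and Cxcr3, and Cd96 most like Mndal (0.65). The points share libraries, so these values describe the likeness only. Levels had 10 CPM added before the log, which flattens differences between low values. Over whole groups, Tigit reached 10 CPM in lung alone and Ctla4 in 14-day lung alone. Their likeness to other genes therefore cannot be told apart from a shared difference between these groups and the rest.

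Of 16 ligand genes of these receptors, 3 reached 10 CPM in the NK cells. Those of PD-1 were higher in lung in every library. Cd274 (PD-L1) had 60.9, 71.9 and 53.5 CPM in lung and 26.1, 31.4 and 25.5 CPM in blood at these 3 times (naive, 6 h, 14 days), and Pdcd1lg2 (PD-L2) had 24.6, 38.7 and 33.9 against 6.90, 14.2 and 6.08 CPM. Both passed 1.5-fold in each library, and Lgals9, the galectin bound by TIM-3, did not, with log2 ratios from -0.05 to 0.20. Of all genes, 6.5%, 6.11% and 5.75% were higher in lung in these libraries. At 6 h over naive Pdcd1lg2 passed 1.5-fold in both tissues, by 0.66 in lung and 1.04 in blood. There 0.487% and 0.283% of all genes were higher. At 14 days over naive in lung, where 4.64% of all genes were higher and 10.9% lower, 0 of the 3 passed. The log2 ratios were 0.46 for Pdcd1lg2, -0.19 for Cd274 and 0.03 for Lgals9. Pdcd1lg2 was past 1.5-fold once the shift of all genes was taken off. Among 11 other inhibitory receptors, 6 were tested at 14 days over naive in lung, and Lilrb4a was higher, by 1.94 (1.70 to 2.18), and the collagen receptor gene Lair1 lower, by -0.61 (-0.78 to -0.45), though not past 1.5-fold once the shift of all genes was taken off. Pvrig (0.47) and Cd244a (-0.36) did not pass, but Pvrig did with that shift taken off. Pvrig, the receptor of nectin-2 in the same family as Tigit, had 12.7 CPM in 14-day lung and 7.73 in 14-day blood, a log2 ratio of 0.71 (0.42 to 1.01).

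All 12 genes for phosphatases, kinases and adaptors that carry signals of these receptors were tested, and 0 passed 1.5-fold at 14 days over naive in lung or blood. Of all genes tested, 4.64% were higher and 10.9% lower in lung, and 0.949% higher and 3.01% lower in blood. With 12 genes, a count of 0 was not read as a difference from these shares. The phosphatase gene Ptpn6 (SHP-1) came closest, at 0.56 (0.48 to 0.65) in lung, followed by the adaptor gene Sh2d1b1 at 0.52 (0.41 to 0.62), and both were past 1.5-fold once the shift of all genes was taken off. The kinase genes Fyn (-0.44) and Lck (-0.38) came next. In lung over blood, Vav1 and Lcp2 were lower in the naive (-0.71 and -0.64) and 6 h libraries (-0.62 and -0.62), where 3.95% and 3.4% of all genes were.

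Of 16 transcription factor genes linked to checkpoint expression or NK maturation, 15 were tested. In lung over blood, 5 were higher in the naive and 6 h libraries and 6 at 14 days, where 6.5%, 6.11% and 5.75% of all genes were, including Nr4a1, Nr4a2, Nr4a3 and Nfil3 each time. The NR4A genes are induced by receptor stimulation and also as early response genes. Nr4a2 had 432 CPM in naive lung and 59.7 in naive blood, a log2 ratio of 2.86 (2.78 to 2.93), beside 2.81 for Tigit. At 14 days over naive in lung the NR4A genes were lower, at -0.72 (Nr4a1), -0.72 (Nr4a2) and -0.79 (Nr4a3), beside 0.55 for Tigit. Whether these genes and Tigit are linked was not tested. In that comparison, where 4.64% of all genes were higher and 10.9% lower, 2 factors were higher, Ikzf2 by 0.74 (0.63 to 0.85) and Tcf7, a factor of less mature cells, by 0.62 (0.50 to 0.73), and 6 were lower, among them Zeb2, a factor of terminal maturation, by -1.03 (-1.057 to -1.004), and Bach2 by -0.89 (-0.92 to -0.86). With the shift of all genes taken off, Nr4a1, Nr4a2 and Nfil3 were lower by less than 1.5-fold. The exhaustion factor Tox was at -0.19 (-0.24 to -0.15), equal to the shift of the median over all genes. The median of the genes tested in this comparison was 0.03 for the ligands, -0.19 for the other inhibitory receptors, -0.14 for the signalling genes and -0.385 for the transcription factors, beside -0.19 over all genes. In blood at 14 days over naive, 0 of 15 transcription factor genes were higher and 4 were lower, namely Nr4a1, Nr4a3, Zeb2 and Bach2. Over all genes, 0.949% were higher and 3.01% lower there. The median of the 15 in blood was -0.42, beside -0.15 over all genes. By the plain ratios these 4 were also among the 6 lower in lung. The shift of all genes was not taken off for the calls in blood. These lists held genes also used to mark NK cells (Eomes and Tbx21).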

How the data were processed

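Sorted NK cells from lung and blood were profiled in 3 droplet libraries (naive, 6 h and 14 days). The authors deposited raw UMI counts (unit count) of genes and hashtags over every barcode. They were made with Cell Ranger (7.1.0 by the matrix header, another version by the labels) on GRCm38.p6. Seurat 5.0 is also named in the submitters' processing notes. No doublet caller was run. Barcodes with 800 to 5000 genes and at most 6% mt- counts were kept (8385, 7584 and 5785), and tissue was assigned where 90% or more of tag counts came from 1 tag, which left out 4.08%, 2.08% and 2.44% of them.

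Counts were summed per group and scaled to CPM. A gene was compared where its higher group reached 10 CPM, and a difference of 1.5-fold or more was called, with a gene at 0 set to 3 counts. With 1 library per time, times were not tested. After the data had been seen, lung was tested against blood on the summed counts of the 6 groups with edgeR 4.0.16 under R 4.3.3 (TMM, default filter, quasi-likelihood test, library as a block). The upper limit of free RNA, 7.43%, 4.15% and 2.84% of counts, was set by Lyz2 or Ms4a1 in barcodes of 100 counts or fewer. The intervals and the edgeR fit were tested on simulated data. Thinning to 3000 UMIs left out 6 to 86 cells per group. The members and lists were chosen with earlier results of these data known. From each list the genes with the largest ratio at 14 days in lung were to be named (up to 4), and others in the text were chosen after their values were seen. Alternatives changed filters, tags, totals, scaling, depth, free RNA, cells and thresholds. The software was scipy 1.17.1, numpy 2.4.6 and scikit-image 0.26.0 under Python 3.11.15. Gene positions come from GENCODE M21, while the labels name another release.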

Additional observations from a re-analysis of the deposited data

Results flagged for a closer look

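In 4 cases a member differed from the naive library in opposite directions in lung and blood, with counting intervals on either side of 0. The share of all genes that did so was not determined, so these cases cannot be called unusual. At 14 days the log2 ratio of Crtam was 0.70 in lung against -0.56 in blood, that of Klrg1 was -0.75 against 0.18 and that of Cd96 was 0.14 against -0.30. At 6 h the log2 ratio of Cd226 was 0.087 in lung against -0.23 in blood. The differences between the tissues (lung minus blood) were 1.26 (1.06 to 1.45) for Crtam, -0.93 (-1.02 to -0.84) for Klrg1, 0.44 (0.29 to 0.59) for Cd96 and 0.32 (0.21 to 0.42) for Cd226, with intervals for counting error only. Each tissue is 1 sample per time, so the difference was not tested between animals.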

How the results depend on the processing

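Between times no library could be left out, because each time is 1 library. In the paired comparison of lung and blood, 4 members passed with the library as replicate block, 4 without the replicate block, with RLE size factors and with no filter on low counts, and 3 to 5 with 1 library left out. Over all genes, 2392 passed with the replicate block, 1247 without it, and 498 (without the 6 h library) to 5781 (without the 14-day library) with 1 library left out. Members that did not pass changed sign in 3 cases, Klrg1 and Cd96 without the 14-day library (-0.44 to 0.029 and -0.071 to 0.16 with 1 library left out) and Lag3 (0.0082) without the replicate block. Across 15 alternatives, 93 counts of members past 1.5-fold stayed within 1.5 times the value given and 12 did not. Ratios and levels were not compared for alternatives that changed only thresholds, nor were levels for the scaling to the median. Members with few UMIs have wide counting intervals, which their ratios can hardly leave. No called ratio changed sign, and 784 log2 ratios stayed within their counting interval while 56 did not. Likewise 524 levels stayed and 136 did not, and with classes from 2000 UMIs 175 class levels stayed and 65 did not. With thinning 2 shares of cells stayed and 58 did not. Fewer UMIs per cell lower such shares by design, so this count does not measure stability. For lung over blood, the count of members in the naive library went from 4 to 2 with a fold of 2, at 6 h from 3 to 6 with no minimum level, and at 14 days from 5 to 3 with a minimum of 50 CPM. For 6 h over naive in lung it went from 0 to 1 with no minimum level. For 14 days over naive in lung it went from 3 to 1 in cells thinned to 3000 UMIs, as the mean of CPM over cells, with a minimum of 50 CPM and with a fold of 2, and to 6 with no minimum level. For 14 days over naive in blood it went from 0 to 1 with free RNA subtracted and without cells with T cell markers, and to 2 with no minimum level. The cause of the losses by thinning and averaging was not tested. Depth limits Pdcd1, Havcr2, Lag3 and, in blood, Ctla4, which had 1 to 157 UMIs in a group.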
